A study of Rattus norvegicus with 10 samples.

Results

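Mitochondrial ribosomal proteins were followed in rat oligodendrocytes (OLs) and their progenitors (OPCs). They were taken as every gene of the deposited gene table whose symbol begins with Mrpl or Mrps and a number, which gave 75 gene entries with 73 symbols among 16129 genes. All 75 were annotated as protein-coding. Primary OPCs were shaken off mixed glial cultures from the cortices of newborn Sprague-Dawley rats and transfected at 30 nM with small RNAs that either copy a microRNA (a mimic) or block it (an inhibitor). The OL groups were kept in differentiation medium and collected 5 days after transfection, with a scrambled mimic (OL miR-ctl), a miR-145-5p mimic (OL miR-145), or mimics of miR-145-5p and miR-219 (OL miR-145+miR-219). The OPC groups were collected 24 h after transfection, with a scrambled inhibitor (OPC anti-miR-ctl) or a miR-145-5p inhibitor (OPC anti-miR-145). One passage of the study's methods names lentiviral delivery for the sequenced OLs, whereas its results and the labels name transfected mimics, which are taken here. Each of the 5 groups had 2 libraries. The study defines a replicate of its primary cultures in general as the culture from a single animal, and the labels do not tie these libraries to animals. The treatment tag of both OL miR-145 libraries also named miR-219, whereas their titles and descriptions named miR-145 alone, and the titles were followed.

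The mitochondrial ribosome (mitoribosome) translates the few mRNAs that the mitochondrial genome encodes, all of them for subunits of the respiratory chain and of the ATP synthase. Its ribosomal RNAs come from the mitochondrial genome, whereas all of its proteins are encoded in the nucleus, made in the cytosol and imported. The large subunit joins amino acids and the small subunit reads the mRNA, and each holds both descendants of bacterial ribosomal proteins and proteins that only mitochondria have. Differentiating OLs build large amounts of membrane, and their progenitors divide, so both stages place demands on the organelle.

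The microRNA copied in both mimic-treated OL groups and inhibited in OPCs was miR-145-5p. Its RefSeq sequence (GRCr8, chr18:57370033-57370055, minus strand) is shown with the seed, bases 2 to 8 from the 5′ end, in capitals:
rno-miR-145-5p: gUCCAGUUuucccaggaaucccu
The labels did not say which arm of miR-219 was used, so no sequence is given for it.

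The libraries held 33505706 to 42684206 estimated counts. Levels are given as CPM, a gene's count relative to a common library total, after scaling by the trimmed mean of M-values (TMM) over all 10 libraries. The 8 OL markers summed to 15683 to 34695 CPM in the OL libraries and 1082 to 1245 CPM in the OPC libraries, in the direction of the labels. The OL cultures also carried astrocyte RNA: the 7 astrocyte markers summed to 5091 to 12253 CPM in OLs and 239 to 267 CPM in OPCs, and Gfap, the astrocyte intermediate filament, was at 4172.8 to 9675.5 CPM in OLs and 7.80 to 51.8 CPM in OPCs. Microglial markers (10 genes) summed to 320 to 899 CPM in OLs and 842 to 1037 CPM in OPCs. In such mixed RNA, a change in the number of cells of a type and a change in RNA per cell cannot be told apart.

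The summed level of the 75 genes was similar in all groups, at 2399.6 to 3040.4 CPM, or 0.244 to 0.307% of the counts. It was 2660.5 ± 76.1 CPM (SD, n = 2, as for the groups that follow) in OL miR-145+miR-219 and 2687.6 ± 275 CPM in OL miR-145. In OL miR-ctl it was 2621.4 ± 93.1 CPM. The OPCs had 2850.1 ± 269 CPM with anti-miR-145 and 2470.3 ± 100.0 CPM with anti-miR-ctl. The 48 large subunit entries exceeded the 27 small subunit entries in sum by a ratio of 1.73 to 1.90 in every library. The unequal numbers of entries enter this ratio, so it is not read as a higher level per gene. Cytosolic ribosomal proteins, which make the ribosomes of the cytosol, did not share this flat profile: their summed level was 20612 to 24993 CPM in the 6 OL libraries and 36621 to 54403 CPM in the 4 OPC libraries. The mRNAs of the mitochondrial genome went the other way, with 32880 to 38932 CPM in OLs and 13987 to 22441 CPM in OPCs. The OL and OPC ranges overlapped for the mitoribosome and did not overlap for the other 2 sets.

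**Figure D1:**
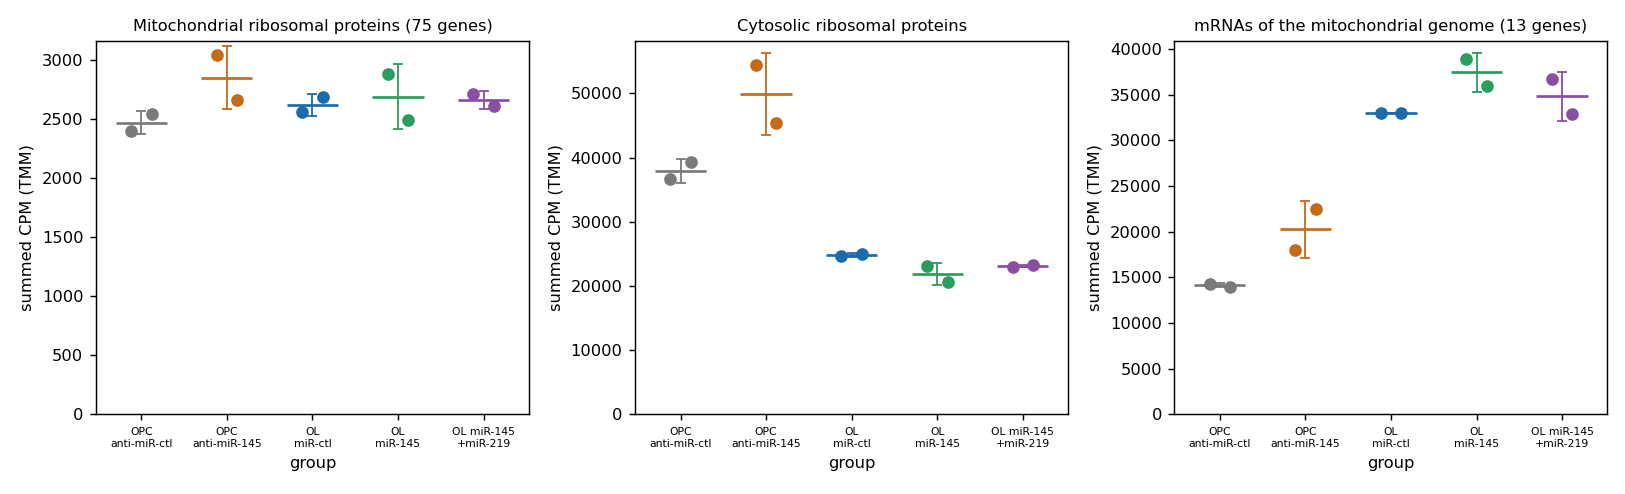
Summed CPM (TMM-scaled, linear axis from 0) in each of 10 libraries for mitochondrial ribosomal proteins, cytosolic ribosomal proteins and the mRNAs of the mitochondrial genome. Points are libraries, horizontal lines group means and bars the SD of 2 libraries; the mitoribosomal sums lie between 2399.6 and 3040.4 CPM in both cell types, whereas the cytosolic and mitochondrially encoded sums separate OLs from OPCs.

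The spread of single members over the libraries was not computed over all genes, so it is not read as a trait of the family. Over the 10 libraries the highest level of a member was 1.14 to 2.46 times its lowest, with a median of 1.47, for 74 members, and 39 of them stayed under 1.5-fold and 5 exceeded 2-fold. The remaining member, Mrpl1, had only 5 to 49 counts in any library and is left out of these ranges, whereas the others had at least 309 counts. Apart from it the members of lowest mean level were the entries ENSRNOG00000047971 of Mrpl36, at 8.5 to 13.9 CPM, and ENSRNOG00000053109 of Mrpl53, at 12.1 to 19.0 CPM. The highest mean levels, on a scale that is not per length, were those of Mrpl3, at 74.3 to 165.7 CPM, Mrpl17, a large subunit protein at 78.1 to 121.8 CPM, and Mrpl45, at 62.3 to 88.1 CPM. When the 6 OL and 4 OPC libraries were set side by side, 61 of 75 members overlapped between the cell types. Every OL library was above every OPC library for 5 members (Mrps6, Mrpl3, Mrpl10, Mrpl40 and Mrps22), where 26.3% of all genes did so, and below for 9 (Mrpl14, Mrpl18, Mrpl21, Mrpl27, Mrpl52, Mrps9, Mrps18b, Mrps26 and Mrps27), where 24.8% of all genes did so.

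**Figure D2:**
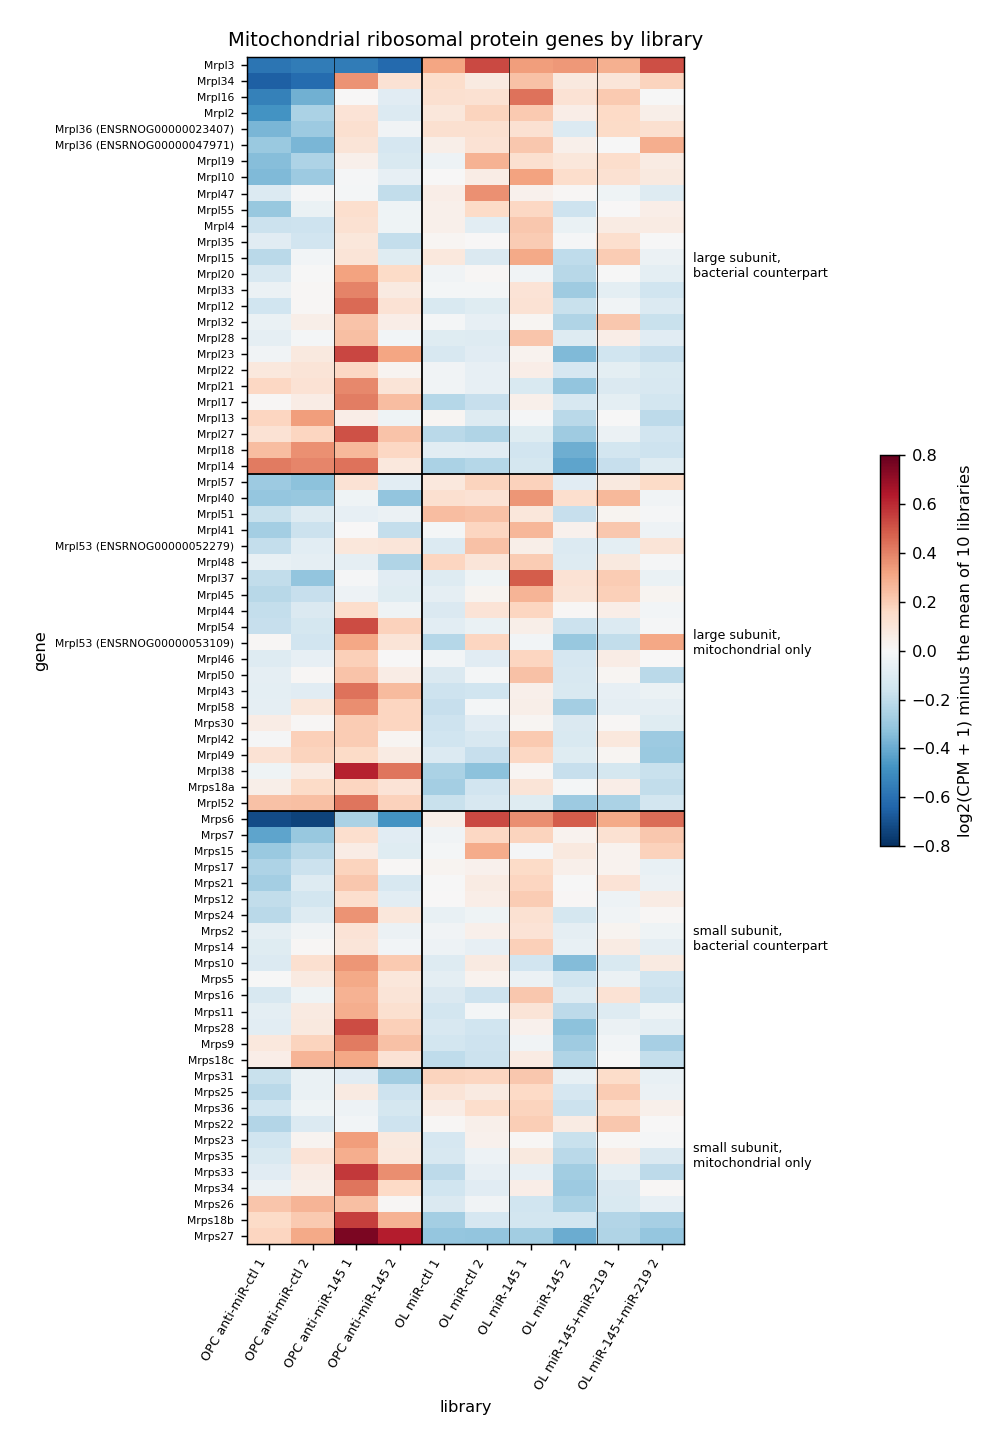
Deviation of log2(CPM + 1) from the mean of the 10 libraries for 74 members (rows; Mrpl1 is left out), by library (columns) and by subunit and ancestry. Colour runs from -0.8 (blue) to 0.8 (red); Mrpl3 and Mrps6 at the head of their classes are blue in all 4 OPC libraries, and replicate 1 of OPC anti-miR-145 is red for most rows.

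Replicates of a group differed from each other across the family as a whole. Replicate 1 of OPC anti-miR-145 was above replicate 2 for 72 of 75 members, by a median of 0.19 on the log2 scale, and replicate 1 of OL miR-145 was above replicate 2 for 70 members, by a median of 0.21. In OPC anti-miR-ctl, replicate 2 was the higher for 64 members, with a median difference of -0.09 (replicate 1 minus replicate 2). Over all genes, 49.5 to 52.2% were higher in replicate 1 in any group. These differences between replicates are the yardstick for the group differences that follow.

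Whether maturing OLs and dividing progenitors carry different mitoribosomal transcripts was addressed by comparing OL miR-ctl with OPC anti-miR-ctl. These groups differ in cell stage, medium, time after transfection and kind of control oligonucleotide, which cannot be told apart. In OLs 15 members were higher and 15 lower at an adjusted p under 0.05 (edgeR's quasi-likelihood test over all genes), or 30 of 75 (40.0%), where 57.5% of all 15721 genes tested were called, 28.8% higher and 28.7% lower. Their median log2 fold change was 0.02, against 0.01 for all genes, with an interquartile range of -0.16 to 0.22 for members and of -0.59 to 0.57 for all genes. Both OL libraries were above both OPC libraries for 32 members (41.7% of all genes) and below both for 24 (40.1% of all genes), and DESeq2 called 25 members (53.4% of all genes). The share of members called was below that of all genes, and the calls were evenly split.

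Of the entries with a bacterial counterpart, 8 of 27 in the large and 3 of 16 in the small subunit were higher and 6 and 2 were lower. Of those found only in mitochondria, 3 of 21 in the large and 1 of 11 in the small subunit were higher and 4 and 3 were lower. The share called was 31.2 to 51.9% in each class, under that of all genes. Mrps6 (ENSRNOG00000059381), a small subunit protein, was at 48.0 and 67.3 CPM in OL miR-ctl and at 27.8 and 27.3 CPM in OPC anti-miR-ctl, a log2 fold change of 1.05 (SE 0.17, adjusted p = 0.00507). Mrpl3 (ENSRNOG00000012650), a large subunit protein that reaches towards the site of peptide bond formation, was at 143.0 and 165.7 CPM in OLs and 76.2 and 77.5 CPM in OPCs, a log2 fold change of 0.99 (SE 0.10, adjusted p = 0.000869). Mrpl34 (ENSRNOG00000017552), a small large-subunit protein, had 26.0 and 24.8 CPM in OLs and 14.6 and 15.0 CPM in OPCs (log2 fold change 0.77, SE 0.10, adjusted p = 0.00199). In each of these the groups did not overlap.

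Mrpl16, a large subunit protein near the tRNA binding sites, had 28.0 and 27.9 CPM in OLs and 17.2 and 19.3 CPM in OPCs, a log2 fold change of 0.60 (SE 0.10, adjusted p = 0.00565). Mrpl2, a core large subunit protein, had 25.7 and 27.3 CPM against 17.0 and 19.9 CPM, a log2 fold change of 0.51 (SE 0.12, adjusted p = 0.0163). Mrpl36 is carried by 2 gene entries that share 1 NCBI gene, so reads could be split between them. Of these, ENSRNOG00000023407 had 22.1 and 22.2 CPM in OLs and 15.4 and 16.3 CPM in OPCs, a log2 fold change of 0.47 (SE 0.10, adjusted p = 0.0112), and ENSRNOG00000047971 had 11.6 and 12.2 CPM in OLs and 8.9 and 8.5 CPM in OPCs (0.44, SE 0.12, adjusted p = 0.0277). Both entries were thus higher in OLs without overlap. The other members called higher had log2 fold changes of 0.28 (Mrps31) to 0.45 (Mrpl57).

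Among the members that fell, Mrpl14 (ENSRNOG00000019734), the large subunit protein to which the assembly factor Malsu1 binds, had 17.6 and 18.0 CPM in OLs and 28.6 and 28.2 CPM in OPCs, a log2 fold change of -0.69 (SE 0.09, adjusted p = 0.00224). Mrps27 (ENSRNOG00000017272), a mitochondria-specific small subunit protein of the pentatricopeptide repeat family of RNA-binding proteins, had 25.1 CPM in both OL libraries and 35.5 and 38.9 CPM in OPCs (-0.58, SE 0.09, adjusted p = 0.00435). Mrpl18 had 27.3 and 27.1 CPM in OLs and 34.6 and 37.5 CPM in OPCs (-0.42, SE 0.09, adjusted p = 0.0124). Mrpl52 had 34.8 and 36.2 CPM in OLs and 46.9 and 47.0 CPM in OPCs (-0.41, SE 0.08, adjusted p = 0.00841). Both Mrpl18 and Mrpl52 sit in the central protuberance, the crest of the large subunit, and of the 8 members listed for it 4 were lower and 1, Mrpl40, was higher, a share of 62.5% near the 57.5% of all genes. Mrpl1 was also called lower, at 0.3 and 0.2 CPM in OLs against 0.6 and 1.3 CPM in OPCs, levels at which a few counts decide the value.

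All 3 paralogs of the bacterial protein S18 were called lower in OLs, as were 28.7% of all genes, although they occupy different places in the particle. Mrps18b, of the small subunit, had 31.9 and 35.3 CPM in OLs and 43.2 and 45.1 CPM in OPCs (log2 fold change -0.41, SE 0.09, adjusted p = 0.0148). Mrps18c, which takes the place of bacterial S18, had 17.8 and 18.2 CPM against 21.4 and 25.0 CPM (-0.38, SE 0.12, adjusted p = 0.0395). Mrps18a, which sits in the large subunit despite its name, had 38.9 and 42.2 CPM against 48.8 and 52.5 CPM (-0.33, SE 0.09, adjusted p = 0.0268). Each group of 2 lay below the other, but none of the 3 was called once either OPC anti-miR-ctl library was left out.

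The stalk, which recruits translation factors to the ribosome, showed 1 call among its 5 entries (20.0%, against 57.5% of all genes). Mrpl10, the base of the stalk, had 50.7 and 52.8 CPM in OLs and 39.4 and 41.1 CPM in OPCs (log2 fold change 0.35, SE 0.08, adjusted p = 0.0154). Mrpl12, the stalk protein that also binds the mitochondrial RNA polymerase, had 65.1 and 66.3 CPM against 63.3 and 71.4 CPM, and the groups overlapped. Mrpl54 had 46.2 and 47.2 CPM against 43.1 and 44.4 CPM (0.08, SE 0.08, adjusted p = 0.418). The 2 entries of Mrpl53 gave 0.21 (ENSRNOG00000052279, SE 0.15) and 0.04 (ENSRNOG00000053109, SE 0.18), neither called. Outside the stalk, Mrpl58, which releases peptides from stalled mitoribosomes, had 23.1 and 26.1 CPM against 25.1 and 28.2 CPM (-0.13, SE 0.12, adjusted p = 0.380), and Mrps30, a large subunit protein in spite of its symbol, had 25.4 and 26.8 CPM against 29.9 and 28.8 CPM (-0.18, SE 0.09, adjusted p = 0.136).

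The number of members called fell without either OPC anti-miR-ctl library and rose without either OL miR-ctl library. That of all genes did the same. The median of the members was -0.03 without replicate 1 of OPC anti-miR-ctl and 0.04 without replicate 2. It was 0.06 without replicate 1 of OL miR-ctl and 0.00 without replicate 2. Over these fits Mrpl3 ran from 0.89 to 1.11, Mrpl34 from 0.73 to 0.81 and Mrpl14 from -0.72 to -0.66. Scaling by library totals in place of TMM shifted the median of all genes to -0.12 and that of the members to -0.11, and gave 10 members higher and 21 lower, so the even split is relative to a TMM scale on which the typical gene is unchanged. The 12 proliferation genes, all called lower in OLs, summed to 324.9 and 262.9 CPM against 2062.6 and 2196.6 CPM, and 7 of 7 astrocyte and 7 of 8 OL markers were higher. Their part in the differences between members was not tested.

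**Figure D3:**
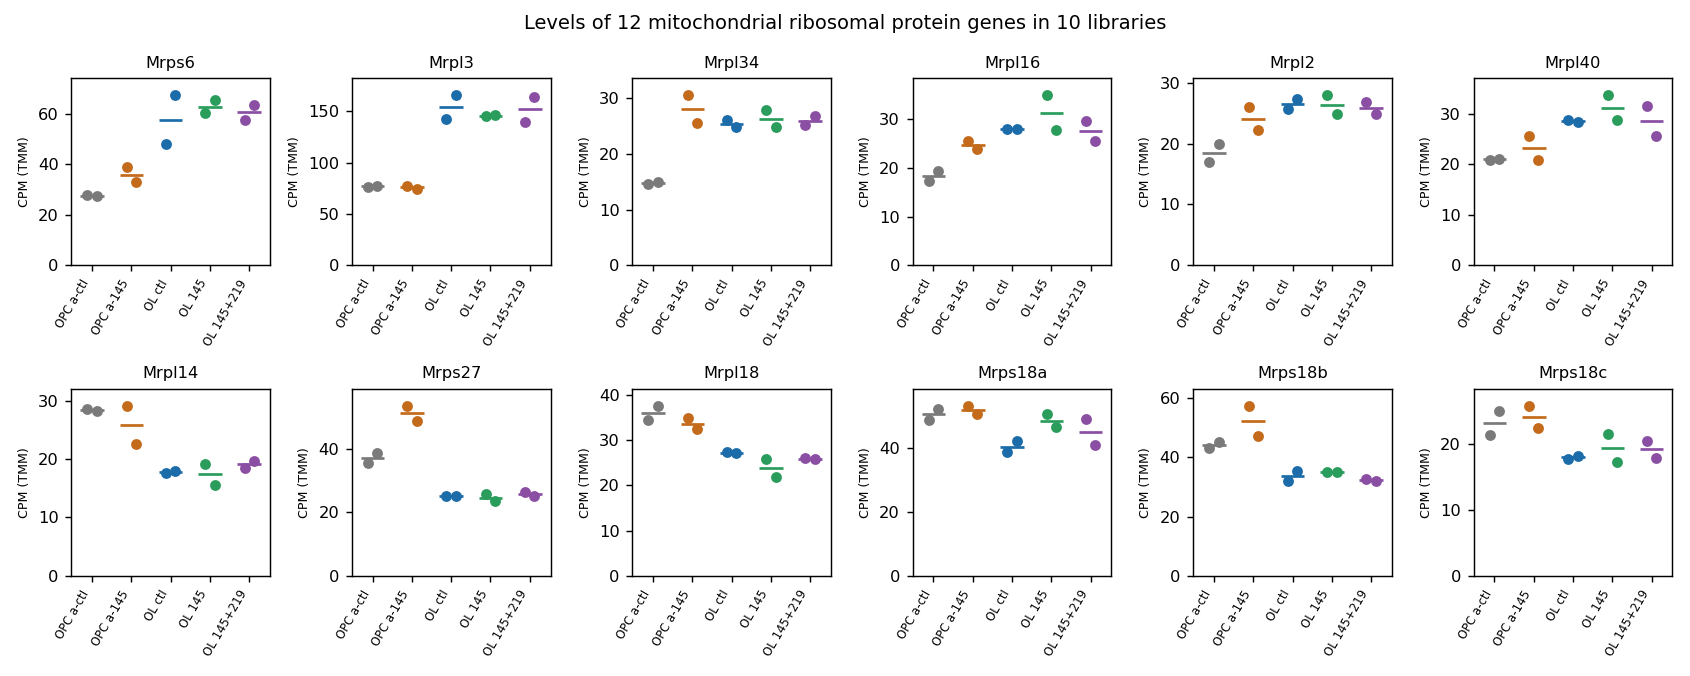
CPM (TMM-scaled, linear axes from 0) of 12 members in the 2 libraries of each group (points; lines are group means; a- stands for anti-miR): OPC anti-miR-ctl, OPC anti-miR-145, OL miR-ctl, OL miR-145 and OL miR-145+miR-219. Mrpl3 separates the cell types in all 10 libraries, Mrpl34 is low only in the 2 OPC anti-miR-ctl libraries, and Mrps27 is highest with anti-miR-145.

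What blocking miR-145 does in progenitors was addressed by comparing OPC anti-miR-145 with OPC anti-miR-ctl. Here 11 of 75 members (14.7%) were higher and 0 lower (edgeR, adjusted p under 0.05), where 28.1% of all 15496 genes tested were called, 12.1% higher and 16.0% lower. At an unadjusted p under 0.05 there were 25 members (40.9% of all genes), and DESeq2 called 13 higher and 0 lower (26.5% of all genes in either direction). The median log2 fold change of the members was 0.20, against 0.00 for all genes, and 63 of 75 lay above 0, where 50.5% of all genes did. Both anti-miR-145 libraries were above both controls for 47 members (35.9% of all genes) and below both for 2 (32.7% of all genes). The median difference was about as large as that between the 2 anti-miR-145 replicates, 0.19.

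Mrpl34 changed most, from 14.6 and 15.0 CPM with anti-miR-ctl to 30.5 and 25.6 CPM with anti-miR-145, a log2 fold change of 0.91 (SE 0.12, adjusted p = 0.00189). In the 6 OL libraries it was at 24.8 to 27.8 CPM, so the 2 OPC anti-miR-ctl libraries were the low ones. It was the member called in every setting tried for this comparison. The other members called rose by less.

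Mrpl54, of the stalk, had 70.8 and 55.8 CPM with anti-miR-145 and 43.1 and 44.4 CPM with anti-miR-ctl (log2 fold change 0.52, SE 0.13, adjusted p = 0.0246). Mrpl38, a mitochondria-specific protein of the central protuberance, had 35.8 and 31.4 CPM against 22.5 and 24.2 CPM (0.51, SE 0.11, adjusted p = 0.0140). Mrps33, a mitochondria-specific small subunit protein, had 44.4 and 38.8 CPM against 27.8 and 30.9 CPM (0.49, SE 0.11, adjusted p = 0.0186). No group of 2 overlapped the other in these members, and replicate 1 of anti-miR-145 was the higher in each.

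Mrps27 had 53.6 and 49.1 CPM with anti-miR-145 and 35.5 and 38.9 CPM with anti-miR-ctl (log2 fold change 0.45, SE 0.10, adjusted p = 0.0158), while all OL libraries had 23.6 to 26.4 CPM. It thus lay farther from its OL level with the inhibitor than without. Mrpl43, a mitochondria-specific large subunit protein, had 43.7 and 38.4 CPM against 30.4 and 30.0 CPM (0.43, SE 0.10, adjusted p = 0.0211). The remaining 5 members called were Mrpl16, Mrpl23, Mrpl36 (ENSRNOG00000023407), Mrps6 and Mrps7, with log2 fold changes of 0.37 to 0.43. Mrpl3, by contrast, had 77.6 and 74.3 CPM against 76.2 and 77.5 CPM, a log2 fold change of -0.03 (95% interval -0.22 to 0.16). Mrpl13, of the large subunit, had the lowest value outside Mrpl1, at 29.3 and 27.4 CPM against 31.9 and 35.7 CPM (-0.27, SE 0.10, adjusted p = 0.0960).

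Members of every class had positive medians: 0.22 for 27 large subunit and 0.24 for 16 small subunit entries with a bacterial counterpart, and 0.17 for 21 large subunit and 0.19 for 11 small subunit entries found only in mitochondria. The 5 stalk entries were all above their controls without overlap, as were 47 of all 75 members and 35.9% of all genes, with 1 called. Among the S18 paralogs none was called, with log2 fold changes of 0.23 (Mrps18b), 0.04 (Mrps18c) and 0.03 (Mrps18a). Mrpl58 gave 0.26 (SE 0.12, adjusted p = 0.143) and Mrps30 gave 0.14 (SE 0.09, adjusted p = 0.264). The control group is the same as in the comparison with OLs, so a low or high level there enters both. The 2 OPC anti-miR-ctl libraries were the lowest of all 10 for 16 members (among them Mrpl34, Mrpl16, Mrpl2, Mrpl36, Mrps6 and Mrps7). They were the highest for 1, Mrpl13. The same was not counted over all genes, so these counts are not read as a trait of the family.

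The number of members called rested on single libraries. It rose without either anti-miR-145 library and fell without either anti-miR-ctl library, as did that of all genes. Without replicate 1 of either group the calls no longer lay all in the same direction. Of 75 members, 50 lay above 0 without replicate 1 of anti-miR-145 and 70 without replicate 2. There were 56 above 0 without replicate 1 of anti-miR-ctl and 64 without replicate 2. The median of the members was 0.08 without replicate 1 of anti-miR-145 and 0.31 without replicate 2. It was 0.14 without replicate 1 of anti-miR-ctl and 0.20 without replicate 2. Over these fits Mrpl34 ran from 0.76 to 1.05. Library totals in place of TMM gave 7 higher and 1 lower (Mrpl13), and the summed CPM of the groups, 3040.4 and 2659.7 against 2399.6 and 2541.0, then overlapped, at 3067.6 and 2709.4 against 2598.1 and 2721.5. The 12 proliferation genes were all lower with anti-miR-145, summing to 814.8 and 904.8 CPM against 2062.6 and 2196.6 CPM, and of 10 microglial markers 5 were higher and 4 lower, with sums of 1037.0 and 842.0 CPM against 962.7 and 911.1 CPM. Their part in the result was not tested.

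**Figure D4:**
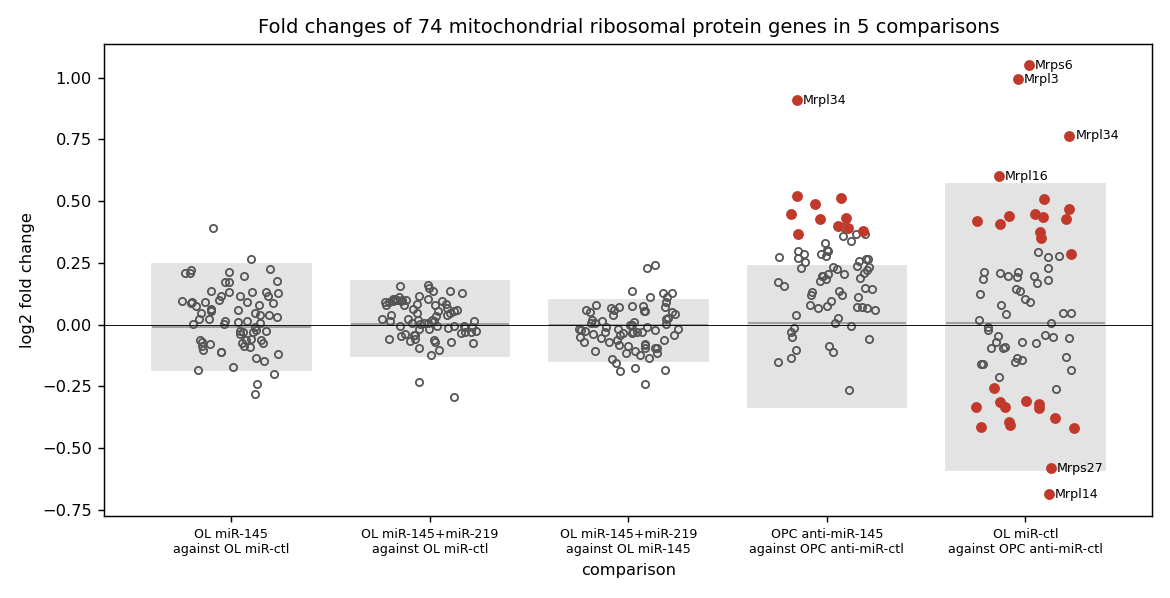
Log2 fold changes of 74 members (points; Mrpl1 is left out) in 5 comparisons. Filled red points passed an adjusted p under 0.05 (edgeR), and grey boxes and lines give the interquartile range and the median of all genes tested; no point is filled in the 3 comparisons of mimic-treated OLs, 11 are filled with anti-miR-145 and 29 between OLs and OPCs.

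Whether raising miR-145 alters these transcripts in OLs was addressed by 3 comparisons on day 5. In OL miR-145 against OL miR-ctl 0 of 75 members were called (0.0% of all 15461 genes tested), 1 had an unadjusted p under 0.05 (13.4% of all genes), and DESeq2 called 0 (4.2% of all genes). The median log2 fold change was 0.03, with 46 members above 0 (48.4% of all genes). Both miR-145 libraries were above both controls for 13 members (22.9% of all genes) and below for 8 (24.4%). Over 74 members the log2 fold changes ran from -0.28 to 0.39, and the 95% intervals reached from -0.67 to 0.78, so together they spanned 0.627- to 1.71-fold. The 7 astrocyte markers summed to 5928 and 5091 CPM in OL miR-ctl, 12253 and 8393 CPM in OL miR-145, and 9996 and 6064 CPM with both mimics. Their part in the mimic comparisons was not tested.

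Mrpl37, a mitochondria-specific large subunit protein, had the highest value, with 80.4 and 61.8 CPM against 53.1 and 55.8 CPM (log2 fold change 0.39, SE 0.15, adjusted p = 0.370). Mrps18a followed with 50.7 and 46.6 CPM against 38.9 and 42.2 CPM (0.27, SE 0.12, adjusted p = 0.399). Mrpl45, the protein that anchors the mitoribosome at the inner membrane, had 88.1 and 78.1 CPM against 69.2 and 73.9 CPM (0.22, SE 0.12, adjusted p = 0.463), and Mrpl38 had 23.3 and 20.1 CPM against 19.2 and 18.2 CPM (0.22, SE 0.14). In these 4 the groups did not overlap, and replicate 1 of miR-145 was above replicate 2 in each. The lowest among members without overlap were Mrpl51 (40.3 and 33.2 against 45.0 and 44.6 CPM; -0.28, SE 0.13, adjusted p = 0.427), Mrps10 (-0.24, SE 0.16), Mrpl47 (-0.20, SE 0.16) and Mrpl18 (-0.18, SE 0.14). The stalk, the S18 paralogs, Mrpl36, Mrpl58 and Mrps30, 12 entries in all, ran from -0.15 for Mrpl53 (ENSRNOG00000053109) to 0.27 for Mrps18a.

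With both mimics against OL miR-ctl, 0 of 75 members were called (0.0% of all 15436 genes), 0 had an unadjusted p under 0.05 (6.19% of all genes), and DESeq2 called 0 (0.687% of all genes). The median was 0.02, with 46 members above 0 (50.3% of all genes), 13 members above their controls without overlap (17.2% of all genes) and 9 below (19.5%). Mrpl51 had 38.4 and 37.6 CPM against 45.0 and 44.6 CPM (log2 fold change -0.23, SE 0.10, adjusted p = 0.814), and Mrpl47 had 16.7 and 15.8 CPM against 17.8 and 22.3 CPM (-0.29, SE 0.16). Mrps31 (-0.12, SE 0.12) and Mrpl33 (-0.10, SE 0.13) were the next lowest without overlap. On the other side stood Mrpl38 (0.15, SE 0.12), Mrpl27 (0.14, SE 0.10), Mrpl43 (0.12, SE 0.10) and Mrpl1, whose 1.08 (SE 0.62) rests on 0.7 and 0.3 against 0.3 and 0.2 CPM. Both comparisons use the same control libraries, so Mrpl51 and Mrpl47 below control and Mrpl38 above it in both are not independent. The same 12 entries of the stalk, the S18 paralogs, Mrpl36, Mrpl58 and Mrps30 ran from -0.06 for Mrpl53 (ENSRNOG00000052279) to 0.16 for Mrps18a.

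Adding miR-219 to miR-145 gave 0 of 75 members called against OL miR-145 (0.0% of all 15501 genes), 0 at an unadjusted p under 0.05 (1.47% of all genes) and 0 by DESeq2 (0.0581% of all genes). The median was -0.02, with 3 members higher without overlap (13.2% of all genes) and 4 lower (11.6%). The 3 were Mrps10 at 16.4 and 18.9 against 16.1 and 13.9 CPM (log2 fold change 0.23, SE 0.15), Mrpl36 (ENSRNOG00000023407; 0.13, SE 0.13) and Mrps26 (0.11, SE 0.10). The 4 were Mrpl10 at 55.2 and 53.5 against 63.4 and 55.7 CPM (-0.14, SE 0.11), Mrps17 (-0.12, SE 0.11), Mrps18b (-0.12, SE 0.10) and Mrpl47 (-0.11, SE 0.12). All 7 intervals of 95% included 0. Mrpl53 (ENSRNOG00000053109) had the highest fold change of all, 0.24, but its groups overlapped.

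The other genes of mitochondrial translation are given beside the 57.5% of all genes called in OLs against OPCs and the 28.1% called with anti-miR-145. Mitoribosome subunits with other names (4 found) gave 1 call in each of the 2 comparisons that involve OPCs: Ptcd3, a small subunit protein, was lower in OLs (45.9 and 41.9 against 69.1 and 70.5 CPM; log2 fold change -0.68, adjusted p = 0.00186) and with anti-miR-145 (57.7 and 58.0 CPM; -0.29, adjusted p = 0.0355). Translation factors (13) had 5 higher and 1 lower in OLs (46.2%), with Gfm2, which recycles the ribosome, at 0.37 (adjusted p = 0.0111), Tufm, the elongation factor Tu, at 0.37 (adjusted p = 0.0124) and the initiation factor Mtif2 at -0.53 (adjusted p = 0.0197), and 0 called with anti-miR-145 by edgeR (4 at an unadjusted p under 0.05). On library totals 2 were higher and 3 lower in OLs.

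Assembly factors (25 entries) had 8 higher and 4 lower in OLs (48.0%). Mpv17l2, an inner membrane protein needed for assembly, was at 45.6 and 46.2 against 22.8 and 23.1 CPM (log2 fold change 0.99, adjusted p = 0.000477), Mrm1, an rRNA methyltransferase, gave 1.03 (adjusted p = 0.00121), and Ngrn, which binds the large ribosomal RNA, 0.92 (adjusted p = 0.000941). With anti-miR-145, 3 were higher and 0 lower: Nsun4, an rRNA methyltransferase (ENSRNOG00000012020; 0.50, adjusted p = 0.0263), Rcc1l (0.45, adjusted p = 0.0287) and the helicase Dhx30 (0.30, adjusted p = 0.0331). Mitochondrial aminoacyl-tRNA synthetases and amidotransferase subunits (21 entries), which charge the tRNAs, had 8 higher and 2 lower in OLs (47.6%), among them Vars2 (0.78, adjusted p = 0.00169), and 4 higher and 1 lower with anti-miR-145 (23.8%). Taken over both directions, these shares lie below those of all genes. Of those called higher in OLs, 8 of 25 assembly factors lie near the 28.8% of all genes called higher. The 5 of 13 translation factors and 8 of 21 synthetases lie above it. With anti-miR-145 the 4 of 21 synthetases called higher lie above the 12.1% of all genes. In lists this small a few genes decide such shares, so no excess is read from them. Without replicate 1 or 2 of OPC anti-miR-ctl fewer of these genes were called, as of all genes. The medians in OLs were then 0.03 and 0.03 for translation factors, 0.07 and 0.08 for assembly factors, and 0.22 and 0.23 for synthetases. With anti-miR-145 they were 0.11 and 0.08 for assembly factors and 0.13 and 0.12 for synthetases. On library totals the assembly factors had 5 higher and 5 lower in OLs, and the synthetases had 4 higher and 3 lower. With anti-miR-145 the synthetases had 1 higher and 2 lower on that scale. Of all genes, library totals gave 3777 higher and 5330 lower in OLs, against 4531 and 4511 with TMM.

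The mRNAs that the mitoribosome translates changed more than the mRNAs that encode its proteins. All 13 were higher in OLs (median 1.41 on the log2 scale), among them Mt-nd4l (1.89, adjusted p = 6.31e-05), Mt-nd6 (1.90) and Mt-nd5 (1.81), subunits of respiratory complex I, and 11 of 13 were higher with anti-miR-145, with a median of 0.50. Of 6 genes that transcribe the mitochondrial genome 0 were called in either comparison by edgeR, with 1 at an unadjusted p under 0.05 in OLs against OPCs and 0 with anti-miR-145. Cytosolic ribosomal proteins were lower in OLs for 86 of 90 tested, with a median of -0.64, and higher with anti-miR-145 for 36 of 91 with 0 lower, with a median of 0.37. On library totals these directions stayed, with 87 cytosolic genes lower in OLs and 20 higher with anti-miR-145, and with 13 mitochondrial mRNAs higher in OLs and 6 with anti-miR-145. The anti-miR-145 counts fell without replicate 1 or 2 of anti-miR-ctl, as did that of all genes. The medians were then 0.31 and 0.39 for cytosolic genes and 0.48 and 0.47 for mitochondrial mRNAs. In the 3 mimic comparisons edgeR called 0 genes of these lists and 0 of all genes, where DESeq2 called 4.2%, 0.687% and 0.0581% of all genes. Calls thus do not set the lists apart there. In OL miR-145, 62 of 90 cytosolic genes lay below OL miR-ctl without overlap (24.4% of all genes) and 2 above, with a median of -0.18. Of the 13 mitochondrial mRNAs 11 lay above (22.9% of all genes) and 0 below, with a median of 0.27.

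Regulators of mitochondrial biogenesis (10 genes) had 2 higher and 5 lower in OLs (28.8% and 28.7% of all genes). Ppargc1a, a coactivator of respiratory genes, had 18.8 and 10.4 CPM in OLs and 3.1 and 4.1 CPM in OPCs (log2 fold change 2.01, adjusted p = 0.00482), and its relative Ppargc1b gave 1.56 (adjusted p = 0.00437). Pprc1, the third relative, was lower (-0.49, adjusted p = 0.00370), as was the nuclear receptor Esrra, at 43.7 and 37.7 against 61.6 and 62.8 CPM (-0.62, adjusted p = 0.00431). With anti-miR-145 Myc rose (145.8 and 137.6 against 86.8 and 90.5 CPM; 0.66, adjusted p = 0.00154), Esrra rose (0.51, adjusted p = 0.0176) and Gabpb2 fell (-0.65, adjusted p = 0.0275).

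**Figure D5:**
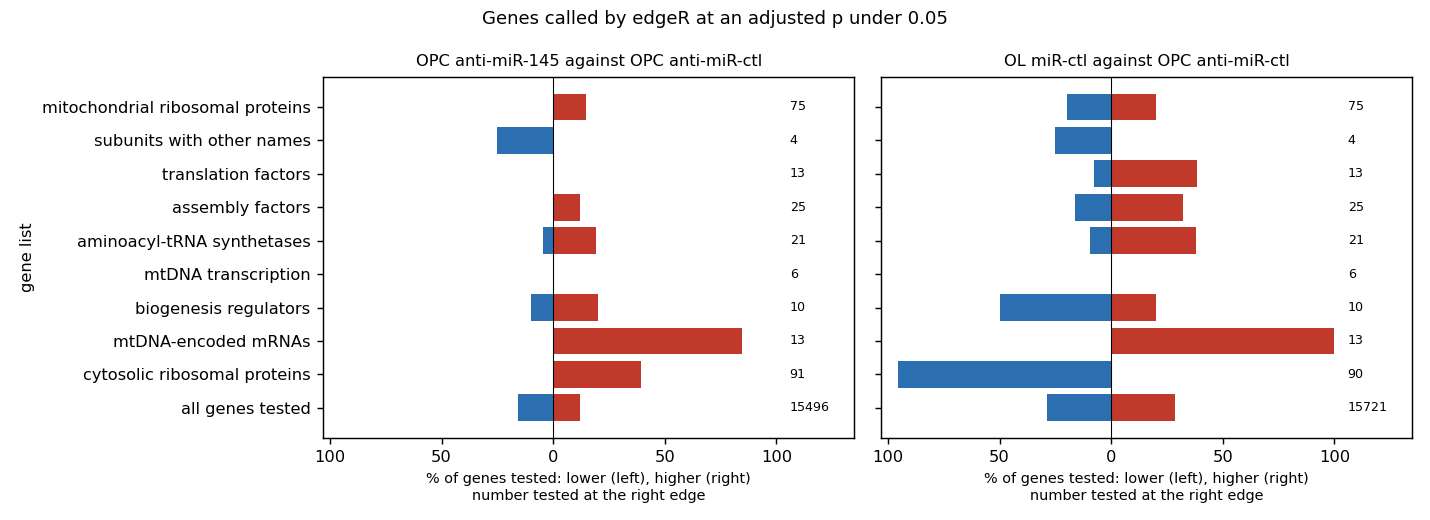
Share of genes called lower (blue, left) or higher (red, right) by edgeR in gene lists and in all genes tested (bottom), as a percentage of those tested (number at the right edge), for anti-miR-145 in OPCs and for OLs against OPCs. Of the mitochondrial ribosomal proteins 11 were higher and 0 lower with anti-miR-145 and 15 higher and 15 lower in OLs, whereas 13 of 13 mitochondrially encoded mRNAs were higher and 86 of 90 cytosolic ribosomal proteins lower in OLs.

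Promoters were read from RefSeq windows (GRCr8) of 300 bases, from 250 before to 50 after each start site. A window existed for 60 of 75 members, or 59 NCBI genes. They were searched on both strands for the cores of motifs known from nuclear genes of mitochondria: CCGGAAG, bound by ETS factors such as GABP, the palindromic core of NRF1, and AAGATGGCG, bound by YY1. The ETS and YY1 letters can overlap. The ETS core was in 33.9% of the member genes and 16.3% of the 11539 genes of the table with a window, the NRF1 core in 13.6% and 9.29%, and the YY1 core in 15.3% and 3.36%, and at least 1 of them was in 50.8% and 25.8%. Of 10 YY1 matches in member entries 8 lay at or after the start site, and 22 of 23 ETS matches lay within 100 bases of it. Both entries of Mrpl36 share a window, so its ETS match and its YY1 match are each counted for both entries.

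By the OL against OPC comparison, 4 of 12 genes called higher, 9 of 13 called lower and 17 of 34 not called held at least 1 of the cores. The stretches of 250 bases before the start are shown for the 3 members that rose most and the 3 that fell most among those with a single window (Mrpl1 left out), with an ETS core in capitals. All are on the plus strand.
Mrps6 (chr11:44778417-44778666): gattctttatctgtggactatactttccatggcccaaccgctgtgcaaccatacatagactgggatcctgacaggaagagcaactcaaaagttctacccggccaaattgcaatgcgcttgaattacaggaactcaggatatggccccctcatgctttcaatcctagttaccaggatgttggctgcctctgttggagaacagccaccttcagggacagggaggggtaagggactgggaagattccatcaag
Mrpl3 (chr8:114548720-114548969): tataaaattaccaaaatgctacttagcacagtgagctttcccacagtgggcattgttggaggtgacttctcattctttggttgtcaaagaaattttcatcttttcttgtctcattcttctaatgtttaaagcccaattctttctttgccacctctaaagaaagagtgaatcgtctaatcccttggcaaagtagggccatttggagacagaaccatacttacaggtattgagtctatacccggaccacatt
Mrpl34 (chr16:18186197-18186446): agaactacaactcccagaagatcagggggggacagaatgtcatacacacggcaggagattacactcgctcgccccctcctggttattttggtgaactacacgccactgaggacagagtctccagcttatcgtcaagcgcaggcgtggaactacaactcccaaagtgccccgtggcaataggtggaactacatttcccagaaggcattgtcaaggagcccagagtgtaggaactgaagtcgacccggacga
Mrps27 (chr2:32473954-32474203): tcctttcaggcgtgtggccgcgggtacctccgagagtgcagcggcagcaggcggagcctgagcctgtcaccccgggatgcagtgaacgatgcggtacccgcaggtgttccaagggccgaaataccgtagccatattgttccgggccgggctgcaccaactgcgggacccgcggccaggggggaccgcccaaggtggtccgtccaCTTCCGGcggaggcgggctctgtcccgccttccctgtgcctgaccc
Mrpl18 (chr1:50384702-50384951): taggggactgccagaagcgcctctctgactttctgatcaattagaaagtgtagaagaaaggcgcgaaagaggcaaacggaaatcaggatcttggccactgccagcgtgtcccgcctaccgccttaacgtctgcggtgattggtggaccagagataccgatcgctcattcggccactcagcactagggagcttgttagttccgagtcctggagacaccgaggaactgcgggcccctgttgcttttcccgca
Mrpl52 (chr15:31852686-31852935): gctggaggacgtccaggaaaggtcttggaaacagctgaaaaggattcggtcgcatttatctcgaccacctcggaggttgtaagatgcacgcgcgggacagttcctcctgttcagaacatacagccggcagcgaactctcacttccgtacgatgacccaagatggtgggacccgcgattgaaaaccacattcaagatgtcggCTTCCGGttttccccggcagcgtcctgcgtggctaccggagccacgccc
The ETS core of Mrps27 and of Mrpl52 lay on the opposite strand, 46 and 49 bases before the start. Past the start and so not shown, Mrps27 held the YY1 core, Mrpl52 a second ETS core and Mrpl3 an ETS core. No core was found in the windows of Mrps6, Mrpl34 and Mrpl18.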

How the data were processed

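Primary rat OL and OPC libraries (TruSeq Stranded mRNA) were assigned by the authors to GENCODE Rnor6.0 transcripts with Salmon 0.12.0 and summed to genes with tximport. The deposited values are estimated counts per gene, with 16.0 to 17.5% of them not whole, and were rounded. The deposited DESeq2 table was read only for symbols, NCBI numbers and biotypes. Its columns of the authors' own comparison (fold changes and p-values) were not used.

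Genes reaching 5 counts in 2 or more of the compared libraries were tested with edgeR 4.0.16 (R 4.3.3): TMM, quasi-likelihood test, Benjamini-Hochberg adjustment over all genes tested, called at an adjusted p under 0.05. Standard errors were derived from the F statistic. The edgeR and DESeq2 fits were tried on simulated counts with known changes, whereas the later steps were not. DESeq2 1.42.0, other filters and scalings, a replicate block and leaving out each library were alternatives.

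Depth gave at least 309 counts per member and library apart from Mrpl1. CPM are not per length, so an order of different genes by CPM is no order of transcript numbers. Named genes were, per comparison, up to 6 members called in each direction by size, or, where none was called, up to 4 of each direction among those without overlap, plus the stalk, the S18 paralogs, Mrpl58, Mrps30 and duplicated symbols, the 3 highest and 3 lowest members by mean CPM, and up to 3 called genes per pathway list by p. Others, such as Mrpl13, Mrpl3 in OPCs and the extremes of a range, were named after their values were seen. Mrpl9, Mrpl11, Mrpl24, Mrpl30 and Mrpl39 were listed but not found by symbol and were not analysed here. Members and lists were chosen with earlier results of these data known.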

Additional observations from a re-analysis of the deposited data

How the results depend on the processing

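Of the calls that leave out no library, those of OPC anti-miR-145 fell from 11 to 7 with all 5 groups in a single fit. The other counts, taken over both directions, stayed within 1.5 times of the main value, apart from OL miR-145 with the replicate block. By direction, library totals gave 7 higher and 1 lower for anti-miR-145, and the block gave 14 higher and 9 lower for OLs against OPCs. The labels number replicates 1 and 2 in every group but do not say that a number marks a shared culture. Same-numbered deviations correlated at 0.20, 0.20 and 0.36 among the OL groups and at -0.05 and 0.02 in the comparisons with OPC groups. With the replicate number as a block, OL miR-145 against OL miR-ctl gave 1 member, Mrpl37 (log2 fold change 0.38, adjusted p = 0.0263), where 14.7% of all genes were called, and the others gave 0 for both mimics against control (0.855% of all genes), 0 for both against miR-145 (1.19%), 10 for anti-miR-145 (25.6%) and 23 for OLs against OPCs (54.3%). Leaving out each library in turn gave 1 to 48 members for anti-miR-145, 4 to 41 for OLs against OPCs and 0 for the mimic comparisons. Such a fit assumes that the lone library varies like the other group. The median of the members then ran from 0.077 to 0.31 for anti-miR-145, from -0.0345 to 0.061 for OLs against OPCs, from -0.07 to 0.13 for miR-145, from -0.0025 to 0.05 for both mimics against control and from -0.11 to 0.10 for both against miR-145. In OLs against OPCs, Mrpl12 then ran from -0.151 to 0.019 and Mrpl53 (ENSRNOG00000053109) from -0.175 to 0.256. Library totals in place of TMM, an alternative chosen after seeing the data, moved the median of OLs against OPCs to -0.11, and reversed Mrpl53 (ENSRNOG00000053109) to -0.085 and Mrpl54 to -0.0475. Without TMM the summed CPM of OL miR-145+miR-219 was 2577.7 and that of OPC anti-miR-ctl 2659.8. The causes of these shifts were not tested.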
